A study of Mus musculus with 3 samples.

Results

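Genes of the blood vessels and of the blood-brain barrier were described in messenger RNA from dentate gyrus, the entry station of the hippocampus, whose main neurons are granule cells. The set holds 34 genes, taken by symbol as markers of endothelium, pericytes, vascular smooth muscle and the barrier, and each was found in 1 row of the table, among 33101 gene names with a value. The tissue came from wild-type male C57BL/6 mice, called C57Black6 in the labels, aged 8 to 10 weeks, and both dentate gyri of an animal were dissected. The 3 libraries form 1 wild-type group with no second condition, and the labels do not say whether animals were pooled.

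The table gives 1 value for the whole group in FPKM, fragments scaled to transcript length and to the mapped fragments of the sample. It holds neither values per library nor read counts, so no value below carries a standard deviation or a test, the depth behind it is unknown, and differences between genes were not compared with replicate spread. Values are per length, which lets genes be set side by side as levels. In such whole-tissue RNA, fewer cells of a type and less RNA per cell cannot be told apart.

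Brain capillaries are tubes of endothelial cells sealed to each other by tight junctions, with pericytes embedded in the shared basement membrane and the endfeet of astrocytes around them. Arterioles carry a layer of smooth muscle in place of pericytes. The endothelium admits nutrients and lipids through dedicated carriers and returns many foreign compounds to the blood through ATP-driven pumps, which together with the junctions make the blood-brain barrier.

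Transcripts of most of these genes were present at low to moderate level. Of the 34 genes, 24 (70.6%) reached 1 FPKM, against 56.4% of 20108 protein-coding names and 39.6% of all names. At 10 FPKM the order was the other way, with 7 genes (20.6%) against 30.8% of protein-coding names. The median was 2.60 FPKM, beside 2.46 FPKM over all protein-coding names, many of which were at or near 0. Over the 11341 protein-coding names at 1 FPKM or more, the median was 11.5 FPKM. That list leaves out low names, which the set does not. Ramp2 (chromosome 11, 101107342 to 101109564 in mm9) was highest at 36.1 FPKM, above 90.2% of protein-coding names. Pecam1 and Vwf were listed at 0, which is 5.88% of the set against 24.1% of protein-coding names. The summed level of the set was 223 FPKM, or 0.0488% of the FPKM summed over all names.

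Some of the genes have close relatives whose messages are nearly the same letters, and the sequences show how far reads could be told apart. Ly6c1, on chromosome 15, encodes a small antigen anchored to the endothelial surface. Its first 120 coding bases are shown beside those of its relative Ly6c2, 5′ to 3′, with the 6 bases that differ in capitals, from GENCODE M21 transcripts (build GRCm38).
Ly6c1: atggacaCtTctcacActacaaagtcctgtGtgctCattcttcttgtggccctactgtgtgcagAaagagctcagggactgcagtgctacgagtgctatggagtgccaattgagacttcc
Ly6c2: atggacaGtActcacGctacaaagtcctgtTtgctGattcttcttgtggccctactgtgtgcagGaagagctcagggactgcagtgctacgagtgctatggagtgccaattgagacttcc
Over the whole coding sequence of 393 nt the pair differed at 9 bases, an identity of 97.7%. Of all stretches of 50 bases in the listed Ly6c1 transcript, 31.7% also occur in Ly6c2, so the division of reads between 15.5 FPKM for Ly6c1 and 6.05 FPKM for Ly6c2 is uncertain.

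Abcb1a, on chromosome 5, encodes P-glycoprotein, the best known drug efflux pump of the barrier. The start of its coding sequence is shown in the same way beside that of the duplicate Abcb1b, with 15 of 120 bases in capitals.
Abcb1a: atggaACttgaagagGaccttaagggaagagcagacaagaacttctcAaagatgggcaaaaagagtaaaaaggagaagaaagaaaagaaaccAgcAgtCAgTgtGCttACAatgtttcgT
Abcb1b: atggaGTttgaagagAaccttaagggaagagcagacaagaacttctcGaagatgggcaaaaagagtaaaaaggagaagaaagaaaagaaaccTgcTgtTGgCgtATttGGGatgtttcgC
This pair was further apart, with 87.6% identity in a global alignment of the coding sequences. Some 15.5% of the 50-base stretches of Abcb1a also occur in Abcb1b.

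Of 6 junction and adhesion genes, 4 reached 1 FPKM, around a median of 5.57 FPKM. Tjp1, the scaffold protein ZO-1 that ties tight junctions to actin in endothelium and many other cells, stood at 15.9 FPKM. Cldn5, the main claudin of brain endothelium, was at 7.96 FPKM, and Ocln, which encodes the tight junction membrane protein occludin, was at 7.91 FPKM, a ratio of Cldn5 to Ocln of 1.006. The level of Cldn5 was 0.502 times that of Tjp1. Cldn5 is a gene of 1 exon, at 18776940 to 18778353 on chromosome 16 in mm9, and no 50-base stretch of it occurs in a transcript of another gene.

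Among the adhesion molecules, Esam, an immunoglobulin-type protein of endothelial contacts, was at 3.22 FPKM. Icam2, a ligand of leukocyte integrins, was at 0.560 FPKM, so that Esam exceeded it by 5.76-fold. With a pseudocount of 1 FPKM that log2 ratio was 1.44, against 2.53 without. Pecam1, which encodes CD31 and is among the most used endothelial markers, was listed at 0. Icam2 and Pecam1 lie 271 kb apart on chromosome 11, with 5 other rows of the table between them. Other endothelial genes were uneven beside this zero, with Cldn5 at 7.96 FPKM and Esam at 3.22 FPKM. Icam2, Cd93 (0.475 FPKM) and Tie1 (0.222 FPKM) were below 1 FPKM, and Vwf was also listed at 0. A listed 0 may be a failed estimate, which was not tested. Grin1, which encodes the obligatory NMDA receptor subunit and is widely used by neurons, was also listed at 0. Of 76 ribosomal protein names, only 2 were listed at 0, Rpl10l and Rpl39l, and whether these are failed estimates was not tested.

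Angiopoietins steer vessel stability through the receptor Tie2, the product of Tek. Angpt1, the activating ligand, was at 1.81 FPKM, and Angpt2, the ligand that can oppose it, was at 0.132 FPKM, a ratio of Angpt1 to Angpt2 of 13.6. The receptor gene Tek was at 1.35 FPKM. Tie1, whose product is the partner receptor without an established ligand of this family, was at 0.222 FPKM, so that Tek exceeded Tie1 by 6.08-fold. With a pseudocount of 1 FPKM the log2 ratio was 1.31 for the ligands, against 3.77 without, and 0.94 for the receptors, against 2.60 without. Their median of 0.787 FPKM was below that of all but the pericyte genes among the 6 role groups. Ptprb, an endothelial phosphatase that acts on Tie2, stood at 1.14 FPKM, a gene chosen after its value was known. Angpt2 lies wholly within the span of the listed transcript of Mcph1 on the opposite strand, at 2.13 FPKM, but shares no 50-base stretch with a transcript of another gene.

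All 5 barrier transport genes reached 1 FPKM, around a median of 7.61 FPKM, which is the value of Abcg2. For 3 of the 5, Mfsd2a, Slco1c1 and Abcg2, the table lists a noncoding, decay or short coding form, so the place of this median among the role groups depends on those forms. Mfsd2a, the carrier that brings lysolipids with omega-3 fatty acids into brain, lies at 122624093 to 122638395 on chromosome 4 in mm9 and stood at 27.6 FPKM, the second highest value of the set. Slco1c1, a thyroid hormone transporter, was at 14.5 FPKM, 2.93 times Slco1a4, an organic anion carrier, at 4.96 FPKM. These carriers lie 236 kb apart on chromosome 6, within a cluster of Slco genes. Relatives of Slco1a4 were near 0. Slco1a5, whose coding sequence is 89.4% identical to that of Slco1a4, was at 0.0188 FPKM and Slco1a6 at 0.0240 FPKM.

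Of the efflux pumps, Abcg2, which encodes the breast cancer resistance protein, was at 7.61 FPKM, above Slco1a4. Abcb1a was the lowest of the 5 transport genes at 1.41 FPKM, 0.186 times Abcg2, and 1.19 times Abcb1b at 1.19 FPKM. With a pseudocount of 1 FPKM the log2 ratio of Abcb1a to Abcb1b was 0.14, against 0.25 without. The ratio to Abcg2 rests on unlike rows, since the table lists a coding form of 464 nt for Abcg2, against 5717 nt for the longest coding form, and the full form of 4997 nt for Abcb1a.

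Genes of the endothelial surface and of secreted endothelial products held the highest and among the lowest values. Ramp2, whose product turns the receptor encoded by Calcrl into a receptor for adrenomedullin, led with 36.1 FPKM, while Calcrl itself was at 2.60 FPKM and the adrenomedullin gene Adm at 0.686 FPKM. Egfl7, a secreted factor of the vessel matrix, was at 18.4 FPKM. Ly6c1 was at 15.5 FPKM, 1.88 times its neighbour Ly6a, the stem cell antigen Sca-1, at 8.25 FPKM. The Ly6 genes lie 47.4 kb apart on chromosome 15 with no other row of the table between them.

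Among the members are genes of the sialomucins that coat the luminal surface. Podxl, the gene of podocalyxin, was at 6.40 FPKM, Cd34 at 5.61 FPKM and the endomucin gene Emcn at 1.00 FPKM, so that Podxl exceeded Emcn by 6.38-fold. Eng, the TGF-beta coreceptor endoglin, was at 3.69 FPKM, and Acvrl1, the receptor kinase it works with, at 0.0455 FPKM. Cd93, a lectin-type receptor, was at 0.475 FPKM. Vwf, the gene of von Willebrand factor, was listed at 0. In all, 8 of these 10 genes reached 1 FPKM, around a median of 6.01 FPKM.

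Pericyte genes ranged from 16.8 FPKM for the vitronectin gene Vtn to 0.0285 FPKM for Abcc9. Higd1b, a small HIG1 domain gene used as a pericyte marker, was at 1.62 FPKM, 57.0 times Abcc9, and with a pseudocount of 1 FPKM the log2 ratio was 1.35, against 5.83 without. Vtn exceeded Higd1b by 10.3-fold, a ratio of unlike rows, since a retained intron form is listed for Vtn and a coding form for Higd1b. Abcc9 encodes the sulfonylurea receptor SUR2, which in pericytes pairs with the potassium channel encoded by Kcnj8, and Kcnj8 was at 0.906 FPKM. Des, the muscle filament gene desmin, was at 0.268 FPKM and the aminopeptidase gene Anpep at 0.107 FPKM. Only Vtn and Higd1b of these 5 reached 1 FPKM, and the median was 0.268 FPKM.

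Smooth muscle genes were low apart from Myl9. Myl9, a regulatory light chain of smooth muscle and nonmuscle myosin, was at 9.49 FPKM, and Mylk, the kinase that phosphorylates it, at 1.97 FPKM. Tagln, the actin-binding protein SM22, was at 1.497 FPKM. Acta2, the actin of smooth muscle, was at 0.643 FPKM, 0.430 times Tagln and 2.40 times Des. With a pseudocount of 1 FPKM these log2 ratios were -0.60 and 0.37, against -1.22 and 1.26 without. For Acta2, 0.352% of the 50-base stretches occur in another gene, and for Myl9 none. For Tagln the share was 48.3%, most of it (44.5%) with the GENCODE M21 gene Gm48529.

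**Figure D1:**
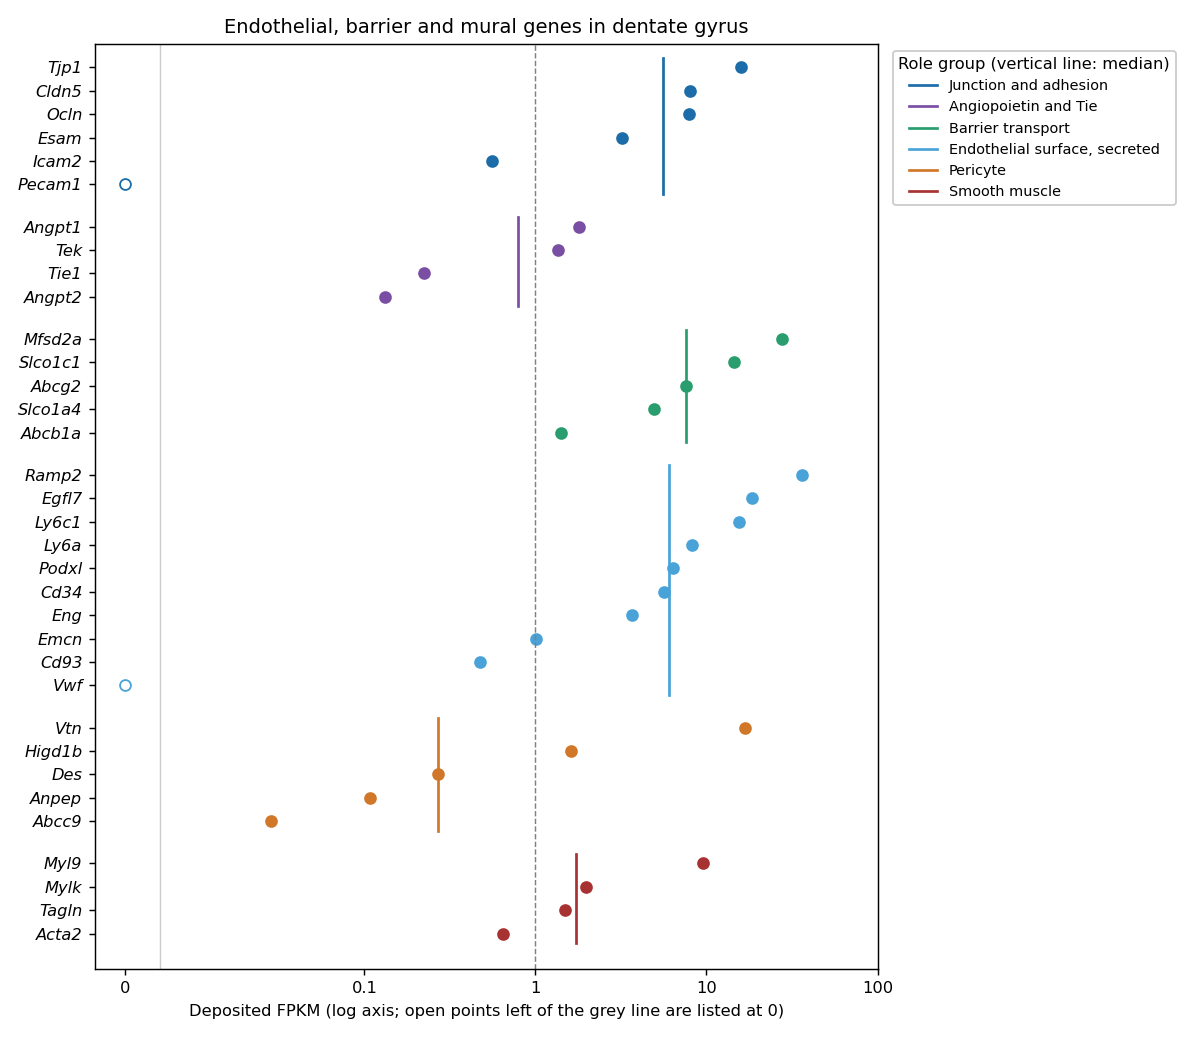
Deposited FPKM on a log axis for each of the 34 genes, grouped by role, with vertical lines at the group medians and a dashed line at 1 FPKM. Transport genes all lie right of the dashed line, 3 of 5 pericyte genes lie left of it, and the open points are Pecam1 and Vwf, listed at 0.

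The 4 smooth muscle genes are known targets of serum response factor, which binds the CArG box, a short element of A and T bases framed by CC and GG. RefSeq promoter windows (GRCm38.p6), which run from upstream of the annotated start to just past it, were matched by symbol for 22 of the 34 genes, which had 28 windows. An exact CArG box was present in 1 of these windows, that of Myl9, against 1.63% of 32851 windows in the table. Allowing up to 1 inner base other than A or T, a form added after the sequences were seen, 7 of the 28 windows held a match, against 9.98% of all windows. The 7 windows belonged to Acta2, Egfl7, Eng, Myl9, Ocln, Slco1a4 and Tek. The other members, Tagln and Mylk included, had either no match or no window. The motif reads the same on both strands. The windows of the highest and the lowest smooth muscle gene are shown 5′ to 3′ with matches in capitals, that of Myl9 at chr2:156775214-156775513 on the plus strand and that of Acta2 at chr19:34255324-34255623 on the minus strand.
Myl9: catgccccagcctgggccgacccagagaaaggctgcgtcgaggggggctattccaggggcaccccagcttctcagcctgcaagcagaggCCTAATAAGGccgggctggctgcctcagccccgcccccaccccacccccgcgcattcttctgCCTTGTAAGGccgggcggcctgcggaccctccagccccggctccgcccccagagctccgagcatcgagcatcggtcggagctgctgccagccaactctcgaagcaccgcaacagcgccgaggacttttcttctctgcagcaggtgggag
Acta2: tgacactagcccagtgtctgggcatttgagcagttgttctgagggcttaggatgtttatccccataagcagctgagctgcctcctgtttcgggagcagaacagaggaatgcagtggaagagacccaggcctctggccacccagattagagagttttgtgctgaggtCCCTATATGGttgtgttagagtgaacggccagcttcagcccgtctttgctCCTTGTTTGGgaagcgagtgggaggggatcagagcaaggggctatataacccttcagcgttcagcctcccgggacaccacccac
The exact match of Myl9 begins 161 bases before the start and its other match 99 bases before. Both Acta2 matches, 84 and 34 bases before the start, hold 1 other base. A match is a description of the letters and does not show that a site was bound.

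Within their families, several members held a leading place, counting protein-coding names by symbol (families chosen after the values were seen). Slco1c1 was first and Slco1a4 the third of 14 Slco transporters, Ramp2 first of 3 RAMP genes, above Ramp1 at 28.8 FPKM, and Tjp1 first of 3 zonula occludens genes. Cldn5 was the fifth of 26 claudins, of which 6 reached 1 FPKM and 10 were listed at 0. Above it stood Cldn25 at 26.7 FPKM, the myelin claudin gene Cldn11 at 22.7 FPKM, Cldn10 at 19.7 FPKM and Cldn12 at 13.6 FPKM. Ly6c1 and Ly6a followed Ly6h at 192 FPKM and Ly6e at 72.4 FPKM among 13 Ly6 genes.

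Other members were minor within their families. Acta2 was far below the cytoskeletal actin genes Actb at 919 FPKM and Actg1 at 311 FPKM, and Tagln was the lowest of 3 transgelin genes, of which Tagln3 was at 135 FPKM. Icam2 stood below Icam5, a neuronal adhesion gene, at 146 FPKM. Abcc9 was the eighth of 10 Abcc genes, led by Abcc5 at 28.6 FPKM, with Abcc8, the gene of the related receptor SUR1, at 15.5 FPKM. Abcb1a was the sixth of 10 Abcb genes and Abcg2 the third of 6 Abcg genes.

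**Figure D2:**
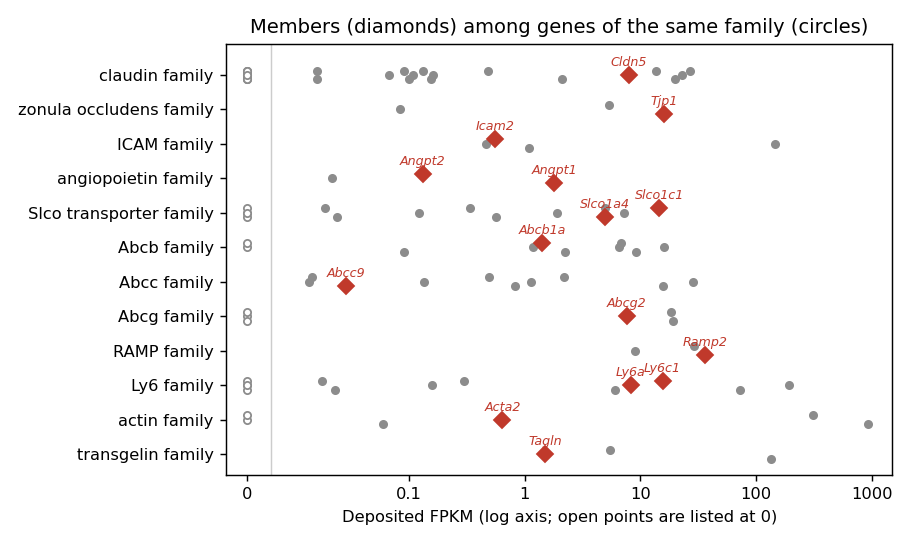
Deposited FPKM on a log axis for protein-coding genes of 12 families, with the members as red diamonds and their relatives as grey circles, open where listed at 0. Slco1c1, Ramp2, Tjp1 and Angpt1 are the rightmost points of their families, whereas Acta2, Tagln and Icam2 lie far left of the leading relative.

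The transcript that the table lists for a gene bears on its value, since the FPKM may belong to that form and not to the whole gene. Of the 34 listed transcripts, 33 were found in GENCODE M21 and that of Tie1 was not. Noncoding or decay forms were listed for 4 genes, Mfsd2a (a processed transcript), Slco1c1 (a form annotated for nonsense-mediated decay), Vtn and Mylk (retained introns). Coding forms under 0.5 of the longest were listed for 2 genes, Egfl7 at 367 of 1391 nt and Abcg2 at 464 of 5717 nt. These 6 genes took 5 of the 12 highest places and 1 of the other 22. The cut falls at place 12, that of Abcg2, the lowest of the 5, and another cut would give another count. The share of such forms among all names is not given here. The 4 noncoding or decay forms had a median of 15.7 FPKM, beside 1.62 FPKM for the 27 genes with a longer coding form. Without those 4 the median of the set was 1.72 FPKM. Such forms were not removed from the protein-coding names, so the median of those names is not a like comparison for this value. The part of the listed forms in the levels was not tested.

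Among the 33 genes, longer listed transcripts had lower levels, with Spearman's rho of -0.52 between FPKM and listed length. The correlation is across genes of 1 table, which share their libraries and are not replicates. It was -0.43 over the 27 genes with a longer coding form and -0.47 without the genes listed at 0. Over 18407 protein-coding names it was 0.25, and -0.01 over the 13979 not listed at 0. Of 13 genes with a listed transcript under 2000 nt, 12 reached 1 FPKM and the median was 8.25 FPKM. Of the 20 longer ones, 12 reached it, and the median was 1.38 FPKM. Tjp1, at 15.9 FPKM with 7049 nt, stood apart from the other long transcripts, which included Vwf at 8834 nt, Abcc9 at 7433 nt and Cd93 at 6677 nt.

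**Figure D3:**
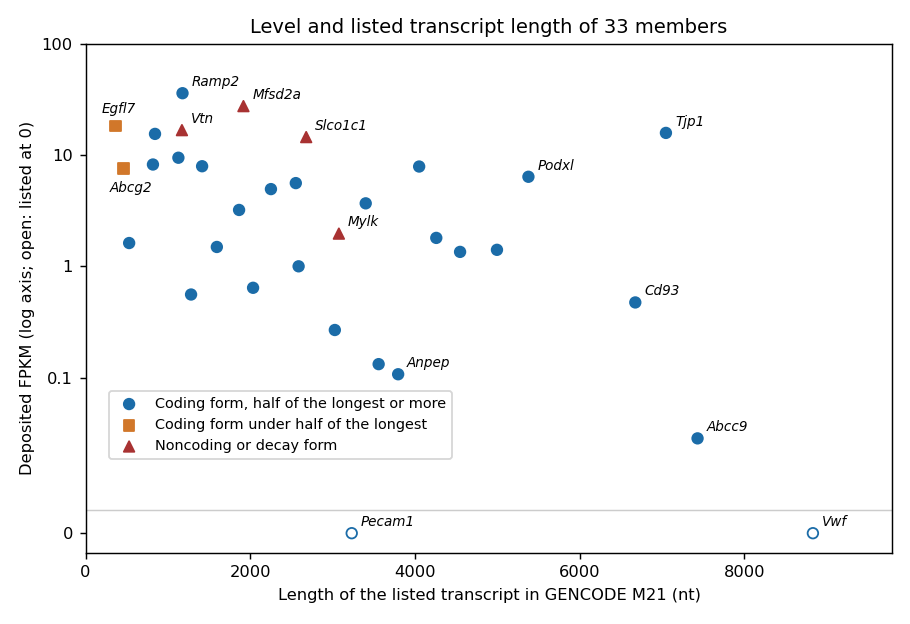
Deposited FPKM on a log axis against the length in nt of the listed transcript for 33 genes, with the form of the transcript by symbol. The noncoding, decay and short coding forms sit mostly among the high values, and Tjp1, at 7049 nt, is the longest transcript above 1 FPKM.

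Rows that overlap in position were a further limit for a few genes, since the protocol describes no step that keeps the strand. Of the 34 genes, 8 overlapped another row, and for 3 the other row held the higher value. These were Angpt2 inside Mcph1, Eng beside Fpgs at 4.32 FPKM with 61 shared bases, and Tagln beside Pcsk7 at 5.92 FPKM with 65 shared bases. For Angpt1, 16.3% of the 50-base stretches also occur in Gm17473, a row on the opposite strand at 0.179 FPKM, and for Egfl7 the share was 24.5%, with Gm20532.

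Further genes used as vessel or barrier markers were read from lists that do not include the 34. Their values are for the whole tissue and not for vessels alone. Of 16 other endothelial genes, 8 reached 1 FPKM, around a median of 1.05 FPKM. The whole set exceeded them by 1.19 between medians on the log2(FPKM + 0.1) scale. That set also holds pericyte and smooth muscle genes, and the 25 genes of its endothelial role groups had a median of 4.96 FPKM. Both medians include noncoding, decay or short coding forms with high values. Cav1, the gene of caveolin-1, was the highest at 8.59 FPKM, followed by the transcription factor gene Sox18 at 2.94 FPKM, and the ETS factor gene Erg was the lowest at 0.0309 FPKM. Of 18 other barrier genes, 13 (72.2%) reached 1 FPKM. Their median was 3.43 FPKM. The amino acid transporter subunit Slc3a2 led at 39.9 FPKM and the lipoprotein receptor gene Lrp1 followed at 33.3 FPKM, while the junction gene Cgn was at 0.0194 FPKM. Of 16 other mural genes, 6 (37.5%) reached 1 FPKM. Their median was 0.642 FPKM, and Myh11 and Lmod1 were listed at 0. The list was led by Cald1, the gene of caldesmon, at 17.1 FPKM and the pericyte marker Rgs5 at 8.22 FPKM.

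Defining markers of the vessel cell types were uneven, and many of them are among the 34 genes already counted. Of 8 endothelial markers, 6 (75%) reached 1 FPKM, against 56.4% of protein-coding names, the exceptions being Tie1 and Pecam1. Of 6 pericyte markers, 4 (66.7%) did, namely Vtn, Rgs5, Pdgfrb at 3.65 FPKM and Higd1b. Of 4 smooth muscle markers, Tagln alone did, with Acta2 at 0.643 FPKM, the calponin gene Cnn1 at 0.0134 FPKM and the smooth muscle myosin gene Myh11 listed at 0.

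Lists for the surroundings of the vessels held far higher levels in places. These are levels in the whole tissue, and the part that belongs to endfeet or vessel walls was not tested. All 8 astrocyte endfoot genes exceeded 10 FPKM. Their median was 46.3 FPKM, and the set minus this list was -4.12 on the log2(FPKM + 0.1) scale. Slc1a2, the glutamate transporter, and the connexin gene Gja1 were at 267 and 94.4 FPKM. Of 12 basement membrane genes, 7 (58.3%) reached 1 FPKM, near the 56.4% of protein-coding names. Their median was 3.56 FPKM. Sparcl1 and Sparc, which encode secreted matrix proteins, led at 453 and 89.0 FPKM, Col4a1 and Col4a2 stood at 3.127 and 4.002 FPKM, and the perlecan gene Hspg2 was the lowest at 0.101 FPKM.

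Markers of other cells that the dissection could hold were read in the same way. Meningeal fibroblast genes had a median of 3.56 FPKM, with 8 of 10 at 1 FPKM or more and a summed level of 48.6 FPKM. Islr led them at 13.2 FPKM, followed by Pdgfra, also a gene of oligodendrocyte precursors, at 10.1 FPKM, and Col3a1 was lowest at 0.232 FPKM. Microglial genes, all 8 above 1 FPKM, centred on 10.6 FPKM. C1qa was the highest at 38.8 FPKM, then Csf1r at 34.1 FPKM, and Aif1 was the lowest at 3.51 FPKM. The neuron and granule cell list had a median of 107 FPKM, with the highest values for Snap25 at 418 FPKM and Slc17a7 at 318 FPKM, and Prox1 lowest at 44.8 FPKM.

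Globin genes were well detected, Hba-a2 reaching 73.2 FPKM and Hbb-b1 reaching 64.0 FPKM, though the other 6 of 10 blood genes were below 1 FPKM and Itgal and Cd3e were listed at 0. Alpha and beta globin genes each have close copies, so the division of reads within them is uncertain. The choroid plexus list centred on 0.0484 FPKM. Kl led it at 6.06 FPKM, Ttr followed at 2.13 FPKM, Kcnj13 was the lowest above 0 at 0.0117 FPKM, and Folr1 and Prlr listed at 0. The part of neuronal, astrocyte, meningeal, blood or microglial RNA in the levels of the vessel and barrier genes was not tested.

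**Figure D4:**
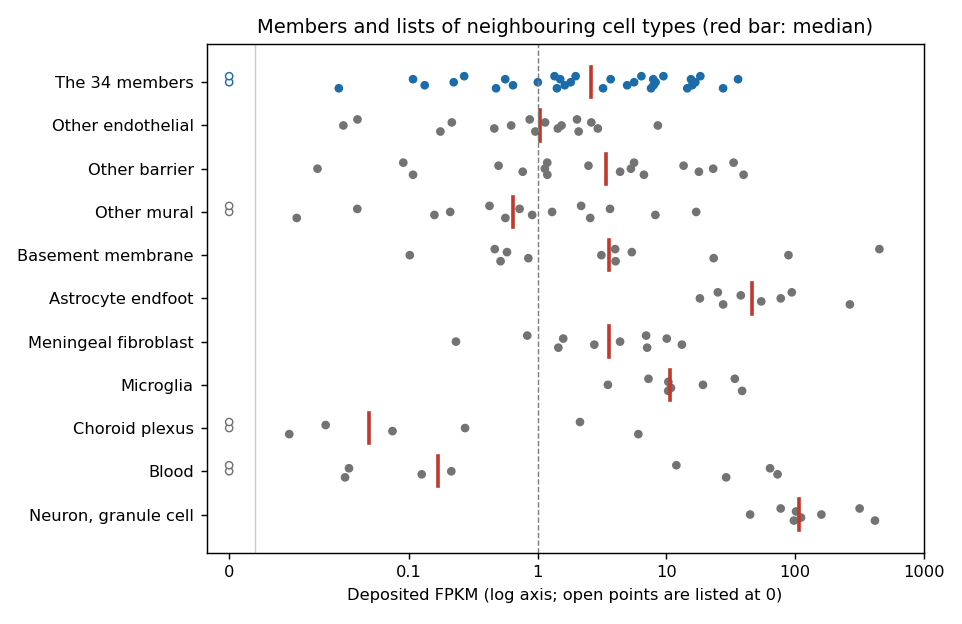
Deposited FPKM on a log axis for the 34 genes (top row, blue) and for each gene of 10 other lists (grey), with red bars at the medians, open points for genes listed at 0 and a dashed line at 1 FPKM. The set spans 0 to 36.1 FPKM around 2.60 FPKM, while the astrocyte endfoot and neuron lists lie wholly above 10 FPKM.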

How the data were processed

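Poly(A) RNA of 3 wild-type libraries was sequenced, and the authors deposited 1 table for the whole series, whose single column of values is in FPKM per the file headers. Per the submitters' processing notes, the tools were TopHat and Cufflinks and the builds named are mm9 and NCBIM37. Versions, strand setting, depth and the way the libraries were joined are not given. Of 37681 rows, 36469 held a value, and 311 names in several rows were summed. Starts in the table count from 0 and were converted to 1-based positions.

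The 34 members, the 10 lists of 114 other genes and the 14 gene pairs were chosen with earlier results of these data known. The rule for named genes took every member, the genes of the pairs, and from each list the lowest gene and the 2 highest. The lowest gene of 1 list is not reported here. Genes named outside it (families, partners, overlapping genes) were chosen after their values were seen. Genes listed at 0 in lists with a median of 1 FPKM or more were also to be named, and Pecam1 and Vwf are those.

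Levels were described by counts, medians and ratios without a pseudocount, and list medians were compared on the log2 scale of FPKM + 0.1, which understates differences of low genes. Transcript types and lengths came from GENCODE M21 by identifier, found for 86.6% of rows, and promoter windows from RefSeq. Protein identity was planned, and identity of coding sequences was computed in its place. No test was run and no p-value is given, because the table holds no values per library. The steps were tested on simulated data. Python 3.11.15, pandas 2.3.3, numpy 2.4.6, matplotlib 3.10.9 and Biopython 1.88 were used.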

Additional observations from a re-analysis of the deposited data

How the results depend on the processing

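With no spread between replicates in the table, a value was counted as kept when it stayed within 1.5 times. Leaving out each replicate could not be run, since there is 1 value per gene, and no paired analysis was possible because there is 1 group. The median of the 34 genes was 1.72 FPKM without noncoding and decay forms, against 2.60 FPKM with them, and 1.56 FPKM without short coding forms as well, an alternative chosen after seeing the data. The count of 24 genes at 1 FPKM or more stayed within 1.5 times at the other thresholds. For differences between lists and for ratios, this rule was applied to the log2 value. Of 80 such alternatives, 59 kept their log2 value, 20 moved and 1 reversed. A ratio counted as kept can therefore still change by more than 1.5 times. The log2 ratio of Podxl to Emcn, 2.67 without a pseudocount and 1.89 with 1 FPKM, was counted as kept. That of Abcb1a to Abcb1b, 0.25 and 0.14, was counted as moved. The reversed one was the set minus other barrier genes, 0.063 on the log2 scale without genes listed at 0, and it was -0.22 with list means. A pseudocount of 1 FPKM gave 0.79 against other endothelial, 1.11 against other mural, 1.6 against blood and 1.76 against choroid plexus genes. List means gave -0.72 against basement membrane and 0.81 against blood genes. Without genes listed at 0 the differences were -0.0356, -0.00941 and 0.868 against basement membrane, meningeal and blood genes. Apart from the sets' own construction, the cause was not tested. Depth is unknown, so values near 0 cannot be told from absence.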
